A study of Glycine max with 14 samples.

Results

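Chalcone synthase and isoflavone synthase RNA was followed through cotyledon growth in 9 soybean loci. The loci were taken from a list of identifiers: 7 for chalcone synthase (Glyma01g43880, Glyma11g01350, Glyma08g11620, Glyma08g11520, Glyma05g28610, Glyma09g08780 and Glyma02g14450) and 2 for isoflavone synthase (Glyma07g32330 and Glyma13g24200). They hold 10 gene models, because Glyma11g01350 has 2 splice models, out of 78773 models of 69145 loci in the deposited tables. The list applies no threshold on expression. The tables pair no identifier with a gene name, so the family of each locus is that of the list. As a partial check, the chromosome number in each of the 9 identifiers is one on which the RefSeq gene table (assembly Glycine_max_v4.0) holds a symbol of the same family, with isoflavone synthase symbols on chromosomes 7 and 13 and with 9 of its 17 chalcone synthase symbols on chromosome 8.

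The study sequenced RNA from germinating cotyledons, the storage leaves of the seed, which feed the seedling and then green. All plants were of the cultivar Williams and were grown in a greenhouse, and the tissue was lyophilized. Each of 7 stages has 2 biological replicates, per the labels, and the sources used here do not give the number of seedlings in a replicate. Stage 1 is the germinating seed at 1 day after imbibition, and the later stages are counted in days after planting: 2 days for stage 2, then 2 to 3 (stage 3), 3 to 4 (stage 4), 4 to 5 (stage 5), 5 to 6 (stage 6) and 6 to 7 (stage 7).

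Chalcone synthase is the entry enzyme of flavonoid synthesis: it joins a coumaroyl unit to malonyl units and makes a chalcone. In legumes, chalcone reductase works beside it and opens the 5-deoxy branch, and chalcone isomerase closes the ring to a flavanone. Isoflavone synthase, a cytochrome P450 of the endoplasmic reticulum, moves the aryl ring of the flavanone and so starts the isoflavonoids, and a dehydratase completes the isoflavone. Soybean seeds and seedlings are known for isoflavones such as daidzein and genistein, which are precursors of defence compounds and signals to nodule bacteria. Chalcone synthase genes form a large family in soybean, with several nearly identical copies clustered together.

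The read totals behind the libraries ran from 83892589 to 130723918 reads, and the members held from 21 reads (Glyma02g14450.1, stage 1 replicate 2) to 148166 reads (Glyma07g32330.1, stage 2 replicate 1). As a check of the tissue label, by identifiers assumed from general knowledge, the summed level of 6 glycinin models, seed storage proteins, was 302 to 333 RPKM (reads scaled to the length of the model and the read total of the library) at stage 1 and 4.39 to 5.28 RPKM at stage 7. The summed level of 8 models of the Rubisco small subunit, a photosynthetic protein, was 114 to 271 RPKM at stage 1 and 60117 to 69898 RPKM at stage 7. The seed coat marker, anthocyanidin reductase, was at most 0.072 RPKM in any library. The stage 1 libraries stood apart: between them 31.9% of tested models differed at least 2-fold on the RPKM + 1 scale, against 3.47 to 6.74% within the other stages.

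Isoflavone synthase RNA was high in the first 3 stages, fell to a low at stage 6 and lay higher again in both stage 7 libraries. Glyma07g32330.1, on chromosome 7 by its identifier, measured 286 and 257 RPKM in replicates 1 and 2 at stage 1, 566 and 270.2 at stage 2, 398 and 301 at stage 3, 155 and 68.9 at stage 4, 67.4 and 39.7 at stage 5, 33.9 and 28.1 at stage 6 and 82.3 and 55.4 at stage 7. All 6 libraries of stages 1 to 3 lay above all 8 later ones. Its stage means ran in the order 2, 3, 1, 4, 7, 5, 6 from 418 ± 209 RPKM (SD, n = 2) down to 31.0 ± 4.13 RPKM (SD, n = 2), a 13.5-fold range. The libraries of neighbouring stages in that order overlapped in 3 of 6 places: stages 2 and 3, stages 4 and 7, and stages 7 and 5.

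The second isoflavone synthase, Glyma13g24200.1, took nearly the same course at nearly the same level. It measured 312 and 289.5 RPKM in replicates 1 and 2 at stage 1, 575 and 229 at stage 2, 337 and 184 at stage 3, 95.3 and 44.5 at stage 4, 61.5 and 55.2 at stage 5, 28.2 and 29.5 at stage 6 and 75.1 and 91.0 at stage 7. Here too every library of stages 1 to 3 lay above every later one. Of the 10 member models these 2 had all libraries of stages 5 to 7 below all of stages 1 to 3, a share close to the 19.3% of all tested models. The stage means ran in the order 2, 1, 3, 7, 4, 5, 6 from 402 ± 245 to 28.9 ± 0.891 RPKM (SD, n = 2), with overlap in 4 of 6 neighbouring places. In bulk tissue, fewer cells with the RNA and less RNA per cell cannot be told apart, for these and all later values.

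The most abundant chalcone synthase RNAs were those of Glyma01g43880 and Glyma11g01350, which were highest at stage 1. Glyma01g43880.1 measured 680.1 and 158 RPKM at stage 1, 310.0 and 131 at stage 2, 174 and 88.2 at stage 3, 63.4 and 44.4 at stage 4, 58.3 and 45.4 at stage 5, 17.8 and 9.55 at stage 6 and 35.9 and 101 at stage 7. Its lowest libraries were both of stage 6, and stage 7 spread from below the stage 4 libraries to above the lower stage 3 library. The stage means fell in the order 1, 2, 3, 7, 4, 5, 6 from 419 ± 369 to 13.7 ± 5.82 RPKM (SD, n = 2), a 30.7-fold range, and neighbours in that order overlapped in 5 of 6 places, all but stages 5 and 6.

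Glyma11g01350.2 followed the same course, with 497 and 107 RPKM at stage 1, 228 and 89.3 at stage 2, 126 and 58.5 at stage 3, 46.6 and 32.0 at stage 4, 46.6 and 34.6 at stage 5, 15.0 and 7.75 at stage 6 and 27.9 and 80 at stage 7. Replicate 1 was the higher library at stages 1 to 6 and the lower one at stage 7, as for Glyma01g43880.1. The other splice model, Glyma11g01350.1, lay just below it in every library, from 484 RPKM (stage 1 replicate 1) to 7.47 RPKM (stage 6 replicate 2).

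**Figure D1:**
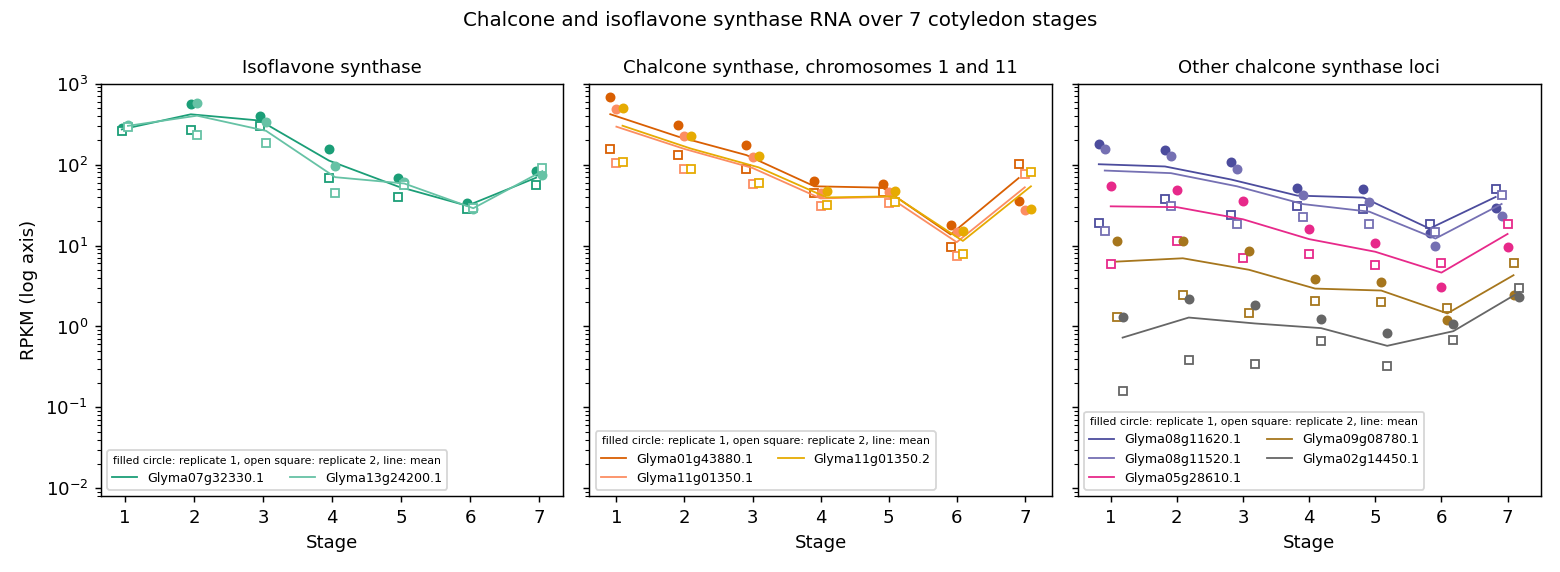
RPKM (log axis) of the 10 member models against stage, with replicate 1 as filled circles, replicate 2 as open squares and a line through the mean of the 2 libraries of each stage. Both isoflavone synthases are at 184 RPKM or more through stage 3 in every library and lie at 28.1 to 33.9 RPKM at stage 6.

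The other 5 chalcone synthase loci were lower on average, and their replicates lay far apart in the early stages. Glyma08g11620.1 measured 182 and 18.8 RPKM at stage 1, 152 and 37.5 at stage 2, 107 and 24.0 at stage 3, 51.6 and 31.2 at stage 4, 49.9 and 28.3 at stage 5, 14.2 and 18.3 at stage 6 and 29.2 and 50.3 at stage 7. The replicate 1 libraries were lower at each stage down to stage 6, whereas the highest replicate 2 library was that of stage 7. Glyma08g11520.1, also on chromosome 8 by its identifier, had the same pattern at a lower level, from 154 RPKM (stage 1 replicate 1) to 9.82 RPKM (stage 6 replicate 1).

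Glyma05g28610.1 ranged from 55.0 RPKM (stage 1 replicate 1) to 3.11 RPKM (stage 6 replicate 1), and Glyma09g08780.1 from 11.5 RPKM (stage 2 replicate 1) to 1.19 RPKM (stage 6 replicate 1). Both were lowest on average at stage 6, at 4.63 ± 2.15 and 1.45 ± 0.367 RPKM (SD, n = 2). Glyma02g14450.1 had the least RNA and another order of stages, measuring 1.30 and 0.160 RPKM at stage 1, 2.19 and 0.390 at stage 2, 1.83 and 0.346 at stage 3, 1.25 and 0.659 at stage 4, 0.827 and 0.326 at stage 5, 1.06 and 0.686 at stage 6 and 2.29 and 3.02 at stage 7. Stage 7 held the 2 highest of its 14 libraries, with a mean of 2.66 ± 0.517 RPKM (SD, n = 2).

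Over the 7 stages, isoflavone synthase and the chalcone synthases Glyma01g43880 and Glyma11g01350 changed, while the other 5 loci did not pass the test. All 10 member models passed the filter on low values (at least 1 RPKM in at least 2 libraries). The moderated F test of limma on log2(RPKM + 1), with Benjamini-Hochberg adjustment over all 44450 tested models, called 5 of the 10 models at an adjusted p under 0.05, near the 58% of all tested models that it called. The adjusted p was 0.000689 for Glyma07g32330.1, 0.000948 for Glyma13g24200.1, 0.0055 for Glyma01g43880.1, 0.0101 for Glyma11g01350.2 and 0.01 for Glyma11g01350.1, and 0.303 to 0.757 for the other models.

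Between the early and the late stages, the same 4 loci fell. Stages 5 and 6 together against stages 2 and 3 together (4 libraries each), with a call needing an adjusted p under 0.05 and a log2 fold change of at least 1 in size, gave 5 of 10 models lower and 0 higher, where 17.5% of all tested models were called lower and 8.6% higher. The log2 fold change was -3.17 ± 0.340 (SE) for Glyma07g32330.1 (adjusted p = 8.52e-05) and -2.84 ± 0.346 for Glyma13g24200.1 (adjusted p = 0.00017). The chalcone synthase Glyma01g43880.1 gave a log2 fold change of -2.55 ± 0.512 (adjusted p = 0.00241), and Glyma11g01350.2 gave -2.34 ± 0.538 (adjusted p = 0.00469). In these 5 models every library of stages 5 and 6 lay below every library of stages 2 and 3, which was so in 42.2% of all tested models.

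The 5 models of the other loci were also lower on average in stages 5 and 6, by log2 fold changes of -1.56 (Glyma05g28610.1) to -0.25 (Glyma02g14450.1), and none was called. The median log2 fold change was -1.95 over the 10 member models and -0.43 over all tested models. The fit shares 1 estimate of spread among the stages, and the stage 1 libraries, which lay far apart, enter it. In a fit without the stage 1 libraries, an alternative chosen after seeing the data, 7 models were called lower, with Glyma08g11520.1 at a log2 fold change of -1.49 (adjusted p = 0.0403) and Glyma05g28610.1 at -1.56 (adjusted p = 0.0342) joining the 5. The 17.5% of all tested models called lower is from the main fit, and the share in this fit is not given here.

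**Figure D2:**
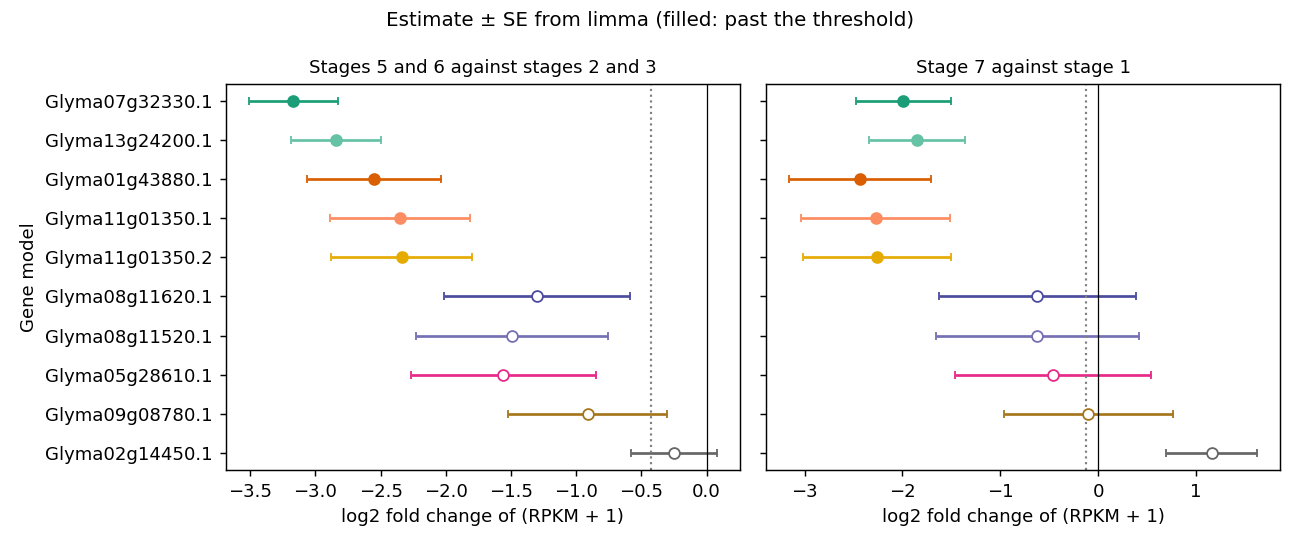
Estimated log2 fold change of (RPKM + 1) with its standard error (bars) for each member model, in stages 5 and 6 against stages 2 and 3 (left) and in stage 7 against stage 1 (right); filled points passed the threshold and the dotted line is the median of all tested models. The 2 isoflavone synthases and the models of Glyma01g43880 and Glyma11g01350 are called in both panels, and Glyma02g14450.1 alone lies above 0 on the right.

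From the first to the last stage the same 5 models ended lower, and the calls of the chalcone synthases were lost with only the 4 compared libraries fitted. In stage 7 against stage 1, 5 of 10 models were called lower and 0 higher, with 16.6% of all tested models lower and 18.4% higher. The log2 fold change was -1.99 ± 0.482 (SE) for Glyma07g32330.1 (adjusted p = 0.00693), -1.85 ± 0.489 for Glyma13g24200.1 (adjusted p = 0.0109) and -2.43 ± 0.725 for Glyma01g43880.1 (adjusted p = 0.0192). For the isoflavone synthases and for Glyma01g43880 and Glyma11g01350, both stage 7 libraries lay below both stage 1 libraries. The share of all tested models in which this was so was not counted. Without stage 1 replicate 1 the log2 fold change was -1.38 for Glyma01g43880.1, -1.16 for Glyma11g01350.2 and 1.65 for Glyma02g14450.1. Without stage 7 replicate 1 it was -1.7 for Glyma01g43880.1 and -1.71 for Glyma13g24200.1. Glyma07g32330.1 was at -1.71 without stage 7 replicate 2. These fits leave 1 library in a stage, so calls are not counted from them. With only the 4 libraries compared in the fit, 2 members were called, the isoflavone synthases. Glyma01g43880.1 kept its log2 fold change of -2.43 there and missed the threshold (adjusted p = 0.114). That fit called 7663 of all models, against 15596 in the main fit.

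In the remaining chalcone synthase models the stage 1 replicates lay on both sides of stage 7, except for Glyma02g14450.1. Glyma08g11620.1, at 29.2 and 50.3 RPKM at stage 7, lay between its stage 1 values of 182 and 18.8 RPKM. The log2 fold changes of Glyma08g11620.1 and Glyma08g11520.1 were both -0.62, that of Glyma05g28610.1 was -0.46 and that of Glyma09g08780.1 was -0.10, and none was called. Without stage 1 replicate 1 these 4 estimates changed sign, to between 0.99 and 1.11. Glyma02g14450.1 was higher at stage 7, at a log2 fold change of 1.16 ± 0.464 (SE), and just missed the threshold (adjusted p = 0.0638). The median over the 10 member models was -1.24, against -0.12 over all tested models.

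No member was called between neighbouring stages, where few models of any kind were. The calls over all tested models were 0.369% lower and 1.41% higher at the step into stage 2, 0% both ways at the steps into stages 3 and 6, 0% lower and 0.00225% higher into stage 4, 0.00225% lower and 0.0585% higher into stage 5, and 0.119% lower and 0.911% higher into stage 7. The voom method of limma, run on recovered reads, also called 0 members at each of the 6 steps. At an unadjusted p under 0.05, 2 member models passed at the step into stage 4, 3 at the step into stage 6 and 5 at the step into stage 7, and 0 at the other 3 steps. Of all 44450 tested models, 5630 passed at that level into stage 4, 5452 into stage 6 and 6864 into stage 7. Into stages 2, 3 and 5 it was 9886, 672 and 2889 of them.

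The isoflavone synthases were those at the step into stage 4, where limma gave a log2 fold change of -1.73 for Glyma07g32330.1 (adjusted p = 0.186) and -1.92 for Glyma13g24200.1 (adjusted p = 0.155). Those at the step into stage 6 were Glyma01g43880.1 and the Glyma11g01350 models, whose unadjusted p ran from 0.0242 to 0.0379. At the step into stage 7 all 10 estimates were positive, with log2 fold changes of 2.12 for Glyma01g43880.1 (adjusted p = 0.19), 1.49 for Glyma13g24200.1 (adjusted p = 0.172) and 1.11 for Glyma07g32330.1 (adjusted p = 0.303). Stage 6 was the low point: both of its libraries lay below the 12 others in 7 of the 10 models, those of the isoflavone synthases, Glyma01g43880, Glyma11g01350, Glyma08g11520 and Glyma08g11620, against 14.1% of all tested models.

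The chalcone synthase models differed between replicates in the same direction at stages 1 to 5, and the isoflavone synthases differed less than they did at stage 1 but more at stage 4. All 8 chalcone synthase models were higher in replicate 1 than in replicate 2 at stages 1 to 5 and lower at stage 7. At stage 1 the RPKM ratio of replicate 1 to replicate 2 was 1.12 for Glyma07g32330.1 and 1.08 for Glyma13g24200.1, 4.30 for Glyma01g43880.1, 4.64 for Glyma11g01350.2, 9.68 for Glyma08g11620.1 and 10.2 for Glyma08g11520.1. On the log2(RPKM + 1) scale, 1.51% of all tested models differed between the stage 1 libraries by at least as much as Glyma08g11620.1, and 85.6% by at least as much as Glyma07g32330.1.

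At stage 2 the replicate ratio of RPKM was 2.10 for Glyma07g32330.1 and 2.51 for Glyma13g24200.1, against 2.36 for Glyma01g43880.1 and 4.05 for Glyma08g11620.1. At stage 3 it was 1.32 for Glyma07g32330.1, 1.83 for Glyma13g24200.1 (a difference reached by 4.62% of tested models) and 4.44 for Glyma08g11620.1 (reached by 0.722%). At stage 4 the isoflavone synthases had the largest ratios among the members, 2.25 for Glyma07g32330.1 and 2.14 for Glyma13g24200.1, and the chalcone synthase models ran from 1.43 to 2.05. The isoflavone synthases went opposite ways at stage 7, at 1.49 for Glyma07g32330.1 and 0.825 for Glyma13g24200.1, where Glyma01g43880.1 was at 0.357 (reached by 1.58%). The share of reads on 52 models of a stretch of chromosome 13 (identifiers Glyma13g11810 to Glyma13g12210) also differed between replicates, at 0.566 to 3.43% of reads in replicate 1 and 3.43 to 15.3% in replicate 2. With the values rescaled without those models, 5 members were again called in each of the 3 comparisons with calls; the part of that share in the replicate differences was not tested.

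**Figure D3:**
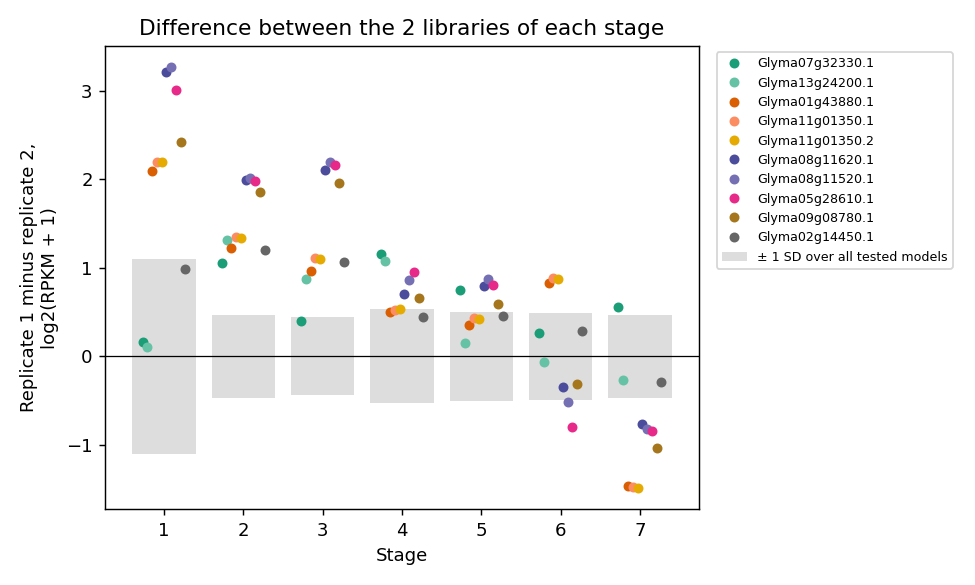
Replicate 1 minus replicate 2 in log2(RPKM + 1) for each member model (points) at each stage, with grey bars of 1 standard deviation either side of 0 over all tested models. Chalcone synthase models lie above 0 at stages 1 to 5 and below 0 at stage 7, and the isoflavone synthases lie near 0 at stage 1.

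Some of the chalcone synthase loci fell into sets whose RPKM kept a nearly constant ratio. Glyma11g01350.2 was 0.664 to 0.843 times Glyma01g43880.1 over the 14 libraries (median 0.735), although these models ranged 64.1-fold and 71.2-fold between their lowest and highest libraries. Glyma08g11520.1 was 0.645 to 0.843 times Glyma08g11620.1 (median 0.798). Less constant were Glyma05g28610.1, at 0.206 to 0.361 times Glyma08g11620.1 (a 1.76-fold range), and Glyma09g08780.1, at 0.0607 to 0.122 times it (a 2.01-fold range). Against Glyma08g11520.1 the ratio of Glyma05g28610.1 had a 1.37-fold range. Between the sets the ratio was not constant: Glyma01g43880.1 was 8.40 times Glyma08g11620.1 in stage 1 replicate 2 and 0.522 times in stage 6 replicate 2. Glyma02g14450.1 kept to no set, at 0.00712 to 0.0786 times Glyma08g11620.1.

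The sources used here do not say how a read fitting more than 1 model was counted, so separate values of near-identical copies are uncertain. Among other identifiers between Glyma08g11520 and Glyma08g11650, chosen after their values were seen, Glyma08g11530.1 was 0.815 to 1.01 times Glyma08g11620.1, Glyma08g11610.1 was 0.667 to 0.872 times and Glyma08g11630.1 was 0.933 to 1.14 times. Others there did not follow it, such as Glyma08g11590.1 at 0.088 to 0.971 times. Glyma13g24200.1 and Glyma02g14450.1 had no model at another locus with a ratio that varied less than 1.5-fold over the libraries, among 39484 models searched. Glyma07g32330.1 had 1, Glyma07g32340.1, the next identifier on the chromosome, at 0.712 to 0.782 times its RPKM.

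**Figure D4:**
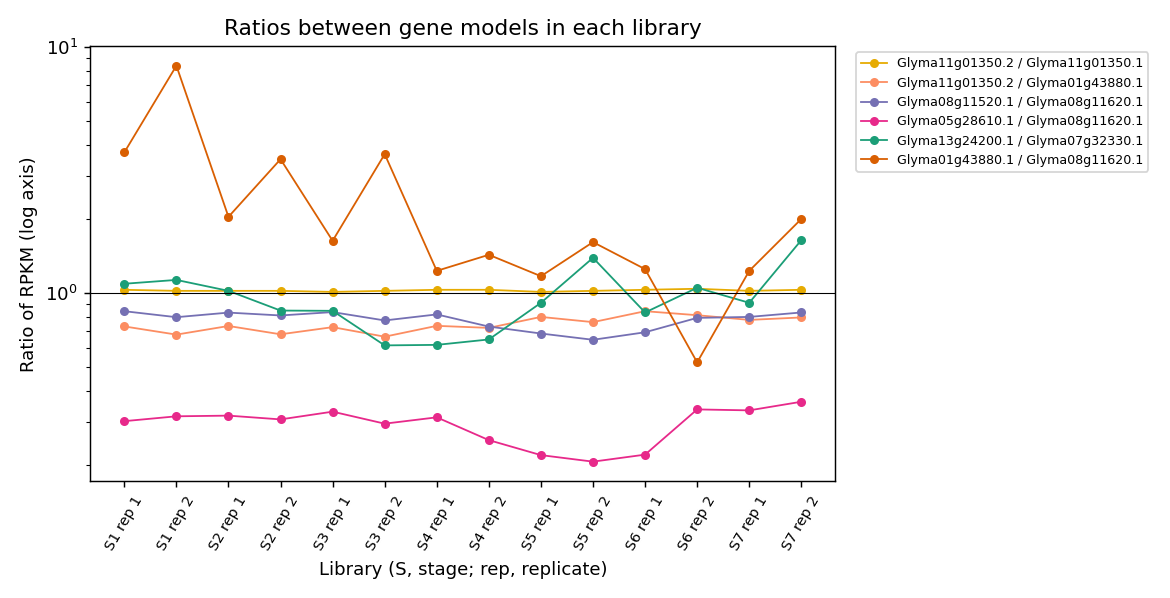
Ratio of RPKM (log axis) between pairs of member models in each of the 14 libraries, ordered by stage and replicate. Ratios within the pair of Glyma01g43880 and Glyma11g01350 and within the chromosome 8 pair stay nearly level, while Glyma01g43880.1 over Glyma08g11620.1 runs from 8.40 to 0.522.

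The levels of the pairs were compared within libraries with a two-sided sign-flip permutation test, adjusted over the 2 pairs. The isoflavone synthases did not differ detectably: Glyma13g24200 against Glyma07g32330 gave a mean log2 ratio of -0.10 ± 0.41 (SD, n = 14), was higher in 6 of 14 libraries and had a permutation p of 0.357. The ratio of RPKM ranged from 0.612 in stage 3 replicate 2 to 1.64 in stage 7 replicate 2. With its splice models summed, Glyma11g01350 exceeded Glyma01g43880 in 14 of 14 libraries, at a mean log2 ratio of 0.55 ± 0.095 (SD, n = 14). The permutation p was 0.000122, the smallest that the test can give with 14 libraries, and 0.000244 after adjustment. On 7 stage means the permutation p was 0.0156 (0.0312 after adjustment). The sum counts splice models that may share reads. Glyma11g01350.1 was 0.648 to 0.822 times Glyma01g43880.1 and Glyma11g01350.2 was 0.664 to 0.843 times it. Adding them therefore put the sum above Glyma01g43880 in every library, and the test cannot tell which locus is higher. With the 1 model of highest mean at each locus the direction turned, to a mean log2 ratio of -0.42 with 0 of 14 libraries higher.

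The summed levels of the listed loci of both families were set side by side, with no test. The chalcone synthase sum holds the 7 listed loci only. Unlisted identifiers on chromosome 8 that kept close to Glyma08g11620.1, such as Glyma08g11630.1 (mean 62.3 RPKM), are not in it, and no family is annotated for them. In stage 1 replicate 1 the summed RPKM of the chalcone synthase models was 2065 and that of the isoflavone synthases 598, and in stage 1 replicate 2 they were 412 and 546. Stage 3 had 666 and 255 RPKM for chalcone synthase against 736 and 485 for isoflavone synthase, and stage 6 had 76.8 and 66.1 against 62.2 and 57.6. Among the listed loci, isoflavone synthase was the higher sum in both libraries of stages 2 and 3. The order with unlisted identifiers counted was not examined. The sums count both models of Glyma11g01350. With 1 model per locus, the one of highest mean, a setting chosen after seeing the data, isoflavone synthase was the higher sum in 8 of 14 libraries in place of 5, stages 2 and 3 again among them. The direction turned in replicate 1 of stages 4, 6 and 7, and the stage 6 sums of chalcone synthase were then 62.1 and 58.6 RPKM.

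The models of other loci nearest in pattern were sought by Pearson correlation of log2(RPKM + 1) over the 14 libraries, among 9414 loci with a mean of at least 10 RPKM, and no name is attached to them here. Nearest to summed chalcone synthase were Glyma03g29950.1 (r = 0.979), Glyma09g33820.1 (r = 0.973) and Glyma08g44320.1 (r = 0.968). Glyma03g29950.1 had stage means of 57.5, 32.1, 17.2, 9.22, 8.89, 1.31 and 10.2 RPKM from stage 1 to stage 7, with the same low at stage 6. Nearest to summed isoflavone synthase were Glyma07g32340.1 (r = 0.993), Glyma08g11060.1 (r = 0.984) and Glyma03g29230.1 (r = 0.983). Libraries share their stage and scaling, so these correlations are descriptions without a test.

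Among other steps of the pathway, models were called in both directions. Identifiers for 33 loci at 13 steps came from general knowledge of published soybean identifiers, an assumption that no table here annotates, and 31 models of 24 of these loci passed the filter. The F test called 18 of the 31, near the 58% of all tested models that it called. In stages 5 and 6 against stages 2 and 3, 9 were called lower and 9 higher (17.5% and 8.6% of all tested models), with a median log2 fold change of -0.20 over the list and -0.43 over all tested models. In stage 7 against stage 1, 6 were called lower and 10 higher (16.6% and 18.4% of all tested models), with a median of 0.12 over the list and -0.12 over all tested models. The loci listed for dihydroflavonol reductase, anthocyanidin synthase and anthocyanidin reductase, which lead to anthocyanins and tannins, had no model past the filter.

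Close to isoflavone synthase in course was Glyma01g45020.1, listed as the dehydratase that completes the isoflavone. It measured 154 and 103 RPKM at stage 1 and 173 and 85.9 at stage 2, and 17.2 and 8.87 at stage 6. Its log2 fold change in stages 5 and 6 against stages 2 and 3 was -2.55 ± 0.298 (SE, adjusted p = 0.000136). Glyma20g38560.1, listed as chalcone isomerase, fell by 1.40 on the log2 scale (adjusted p = 0.00261). Among the 4 tested models of the 3 listed chalcone isomerase loci, 2 were called lower, both of Glyma20g38560, and 0 higher. The 2 named chalcone reductases parted: Glyma18g52250.1 gave a log2 fold change of -2.23 (adjusted p = 0.0035), and Glyma16g34560.1 gave 0.23 (adjusted p = 0.451) and was higher at stage 7 than at stage 1 (2.34, adjusted p = 0.000519). Of the 6 tested models of the 4 listed chalcone reductase loci, 3 were called lower and 0 higher in stages 5 and 6 against stages 2 and 3.

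Steps into flavonols, another product line of the flavanone, had their highest level later. Glyma02g05450.1, listed as flavanone 3-hydroxylase, had stage means of 0.847 ± 0.357 RPKM at stage 2 and 21.2 ± 5.19 RPKM at stage 5 (SD, n = 2). Its log2 fold change in stages 5 and 6 against stages 2 and 3 was 2.87 ± 0.302 (SE, adjusted p = 7.61e-05). Glyma13g02740.1, listed as flavonol synthase, had 0.276 ± 0.166 RPKM at stage 2 and 13.5 ± 7.83 RPKM at stage 5 (SD, n = 2), with a log2 fold change of 2.56 ± 0.298 (SE, adjusted p = 0.000131).

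Before chalcone synthase, the listed phenylalanine ammonia-lyases, which take phenylalanine into the pathway, also parted. Glyma10g06600.1 fell by 1.30 on the log2 scale (adjusted p = 0.024) in stages 5 and 6 against stages 2 and 3, and Glyma20g32140.1 rose by 1.43 (adjusted p = 0.00119). Glyma14g38580.1, listed as cinnamate 4-hydroxylase, was lower at stage 7 than at stage 1 (log2 fold change -1.75, adjusted p = 0.00282). In stages 5 and 6 against stages 2 and 3 it was at -0.89 and was not called. There 1 of the 4 tested models of that step was called lower and 0 higher. Glyma13g01080.2, listed as 4-coumarate CoA ligase, which supplies the coumaroyl unit, had a mean of 0.290 RPKM at stage 1 and 23.2 RPKM at stage 7 (log2 fold change 4.23, adjusted p = 2.67e-06).

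**Figure D5:**
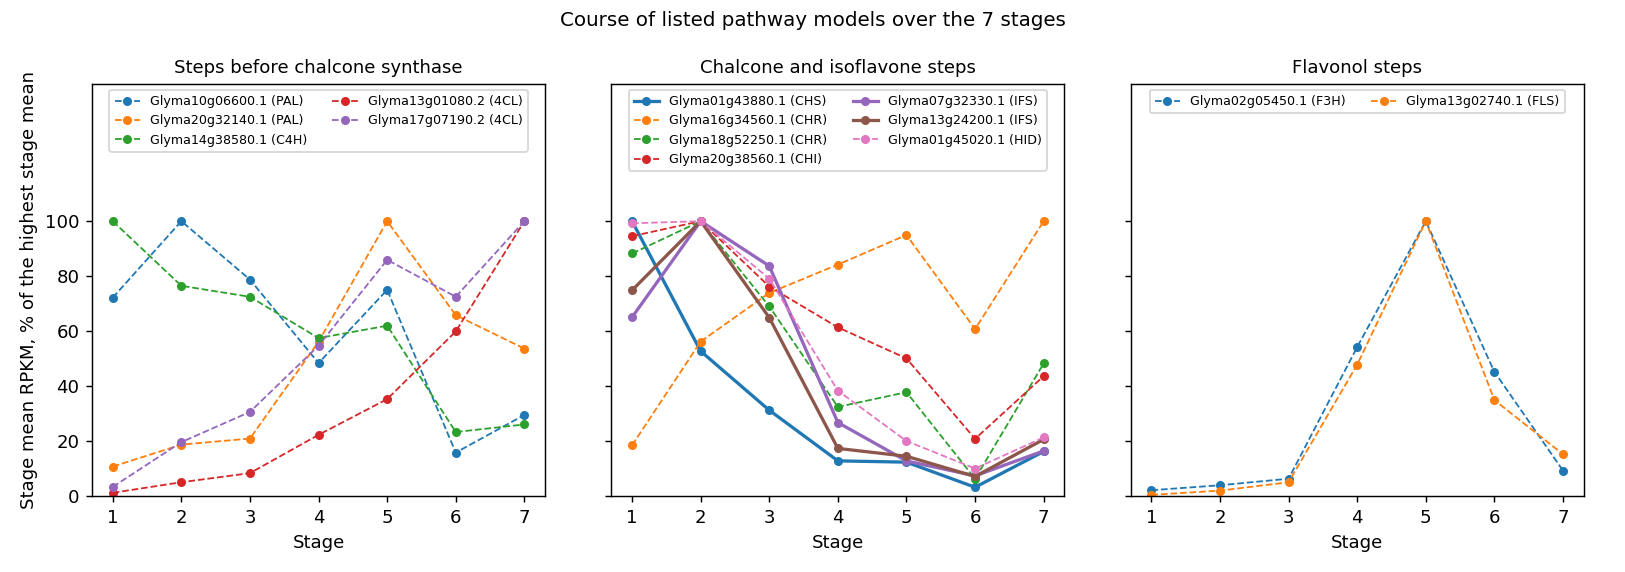
Stage mean RPKM as a percent of the highest stage mean, against stage, for the named pathway models at the steps before chalcone synthase (left: PAL, phenylalanine ammonia-lyase; C4H, cinnamate 4-hydroxylase; 4CL, 4-coumarate CoA ligase), the chalcone and isoflavone steps (middle: CHS, chalcone synthase; CHR, chalcone reductase; CHI, chalcone isomerase; IFS, isoflavone synthase; HID, 2-hydroxyisoflavanone dehydratase) and the flavonol steps (right: F3H, flavanone 3-hydroxylase; FLS, flavonol synthase), with members as solid lines. The stage means of the isoflavone synthases and Glyma01g45020.1 are highest at stage 2 (in replicate 2, Glyma13g24200.1 and Glyma01g45020.1 are higher at stage 1 and Glyma07g32330.1 at stage 3), and those of both flavonol models are highest at stage 5 (in replicate 2, Glyma13g02740.1 is slightly higher at stage 4).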

How the data were processed

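The authors deposited 1 table per library with RPKM values per gene model, per the file headers. The submitters' processing notes name Bowtie; the sources used here do not give its version, the genome build, the annotation or strand use. The members, lists and tests were chosen with earlier results of these data known. All members are named, and pathway models are named if past the F test, up to 2 loci per step with the highest mean RPKM. Tests used limma 3.58.1 (R 4.3.3, statmod 1.5.0) on log2(RPKM + 1), with a mean per stage, a trend, robust moderation, 7 residual degrees of freedom, two-sided p-values and Benjamini-Hochberg adjustment over all 44450 models tested. A fold change on this scale understates that of low models. Whole reads came back from RPKM for 100% of 67016 models above 0 in at least 2 libraries (tolerance 0.003 reads, or 1e-08 of their number), and voom was run on them. The steps were checked on simulated data. Same-numbered libraries were not taken as pairs. RefSeq matched 0 of 69145 identifiers, so no coordinates or sequences are given. Permutation tests used scipy 1.17.1. RPKM is relative to each library's total, so it measures shares of RNA, not amounts.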

Additional observations from a re-analysis of the deposited data

How the results depend on the processing

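Alternatives changed the pseudocount, the filter, the scaling (quantile, upper quartile, and without the chromosome 13 stretch), the method (voom), models against loci and the libraries fitted. The F test called 5 member models under each, except that with 1 value per locus it called 4 loci, the same number as in stages 5 and 6 against stages 2 and 3 and in stage 7 against stage 1. With 1 library left out in turn, the 5 models called in the main fit kept log2 fold changes below 0. In stages 5 and 6 against stages 2 and 3 these ran from -3.44 to -2.01. In stage 7 against stage 1 they ran from -3.48 to -1.16. Calls in these comparisons are not counted from such fits, which leave 1 library in a stage. The 4 compared libraries alone gave 2 member calls in stage 7 against stage 1. Over all models that fit gave 7663 calls, against 15596 in the main fit. The log2 ratio of the Glyma11g01350 pair ran from 0.54 to 0.56 and that of the isoflavone synthases from -0.17 to -0.06; taking the model of highest mean turned the former to -0.42, because the sum counts both splice models. Leave-one-out estimates in stage 7 against stage 1 ran from -2.22 to 0.99 for Glyma08g11620.1, -2.26 to 1.01 for Glyma08g11520.1, -1.97 to 1.05 for Glyma05g28610.1 and -1.31 to 1.11 for Glyma09g08780.1, which was also 0.02 under upper quartile scaling. In stages 5 and 6 against stages 2 and 3, Glyma02g14450.1 ran from -0.55 to 0.05. The causes were not tested. With 2 libraries a stage, and stage 1 libraries far apart, pooled errors may be too small for stage 1.

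The labels do not say what a replicate number shares, although the sample titles number the libraries of each replicate consecutively over the stages. The numbers were not taken to pair the samples, since not every pair of stages had a correlation of replicate differences over 0.1. It was over 0.1 in 18 of 21 pairs (range -0.173 to 0.602, median 0.274). In all 7 stages the correlation with another stage that was largest in size was positive, a hint from the data of a shared factor. With a replicate block, 1 member was called at the step into stage 4 (Glyma07g32330.1, log2 fold change -1.73, adjusted p = 0.0462), and 6 were called in stage 7 against stage 1, with Glyma02g14450.1 added (1.16, adjusted p = 0.0174). Over all tested models, the fit with the block called 295 at the step into stage 4 and 15965 in stage 7 against stage 1. The main fit called 0 lower and 1 higher at that step, and 15596 in stage 7 against stage 1. Member counts in the F test and in stages 5 and 6 against stages 2 and 3 were 5 and 5.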
